A study of Mus musculus with 6 samples.

Results

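The Slc25 genes encode the mitochondrial carrier family, small proteins that sit mostly in the inner mitochondrial membrane and exchange metabolites between the cytosol and the matrix. Their cargo includes ADP and ATP, phosphate, citrate, aspartate, glutamate, carnitine esters, iron, glutathione and vitamin-derived cofactors. Neural stem cells depend on them to supply the matrix with fuel and to return citrate and nucleotides for growth. Members were taken by name alone, as every gene symbol made of Slc25a and a number. They numbered 47 of the 24421 genes in the count table. The family name is wider than the organelle: Slc25a17 is known from peroxisomes and Slc25a46 from the outer mitochondrial membrane.

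Expression was measured in primary neural stem cells from E13.5 mouse embryos. The cells grew in suspension as neurospheres and were lysed on day 4 after dissociation. The medium of both groups held 20 ng/ml epidermal growth factor and 20 ng/ml fibroblast growth factor 2, at 20% oxygen. There were 3 WT libraries and 3 libraries labelled PML knockout, which the series design gives as Pml-/- (Pml encodes the promyelocytic leukemia protein, the scaffold of nuclear bodies). The labels give neither the strain, nor the part of Pml that was removed, nor whether the replicates were separate cultures or embryos. The p-values below rest on the spread among these 6 libraries alone, and that spread could be technical. All 6 carry the same batch label. The library kit reads the 3′ end of each polyadenylated transcript, so levels in CPM (counts scaled to a common library size) can be compared between genes without dividing by length.

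Total counts ran from 1775152 (WT replicate 2) to 5917505 (knockout replicate 1). The WT libraries did not resemble each other as closely as the knockout libraries did. Rn45s, the ribosomal RNA precursor, held 41.9% and 39.8% of counts in WT replicates 1 and 2, against 19.6% in WT replicate 3 and 14.6% to 17.6% in the knockout. Summed over 15 hepatocyte markers, the level was 443, 757 and 133 CPM in WT replicates 1, 2 and 3, and 71.6 to 103 CPM in the knockout libraries. The 12 neural stem cell markers summed to 6272 to 9284 CPM per library, but single markers differed more. Of the 11 tested, 7 had a higher and 4 a lower fitted level in the knockout. At an unadjusted edgeR p under 0.05, 2 were higher (18.2%, against 6.70% of all tested genes) and 0 lower. These were Fabp7, from 73.5 CPM in WT replicate 2 to 2132 in knockout replicate 2 (log2 fold change 1.94, adjusted p 0.240), and Nr2e1 (1.31, adjusted p 0.212). For Pml itself, 36, 35 and 44 reads were counted in WT replicates 1, 2 and 3, against 14, 23 and 5 in knockout replicates 1, 2 and 3. Its scaled level was lower in every knockout library (log2 fold change -2.81, edgeR adjusted p 0.197), and whether the 3′ end lies in the deleted part is not given.

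Of the 47 members, 43 had at least 1 read and 35 passed the filter on low counts and were tested. No member passed edgeR's quasi-likelihood test at an adjusted p under 0.05, where 0.00884% of the 11317 tested genes did (1 gene). The smallest adjusted p among the members was 0.212. At an unadjusted p under 0.05 there were 5 members. Slc25a22 and Slc25a36 were higher in the knockout (5.71% of members, against 6.70% of all tested genes in that direction). Slc25a47, Slc25a39 and Slc25a13 were lower (8.57% of members, against 9.19%). Both shares are near the background. DESeq2 passed 1 member, Slc25a47 (adjusted p 0.0169), or 2.86% of the members against 2.90% of all genes. Limma voom passed 0 members and 0 of all genes.

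Fitted differences were split evenly, with 17 members higher and 18 lower in the knockout. The median log2 fold change was -0.03, beside -0.01 for all tested genes. The median size of the difference, without its sign, was 0.51 on the log2 scale, beside 0.44 for all tested genes. With library totals in place of scaling factors the split became 24 higher and 11 lower. That setting moved the median of all genes to 0.43 and the members' median to 0.47. The genotypes did not overlap for 8 members, 4 higher and 4 lower (22.9%, against 23.6% of all tested genes). In bulk samples like these, fewer cells of a type and less RNA per cell cannot be told apart.

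**Figure D1:**
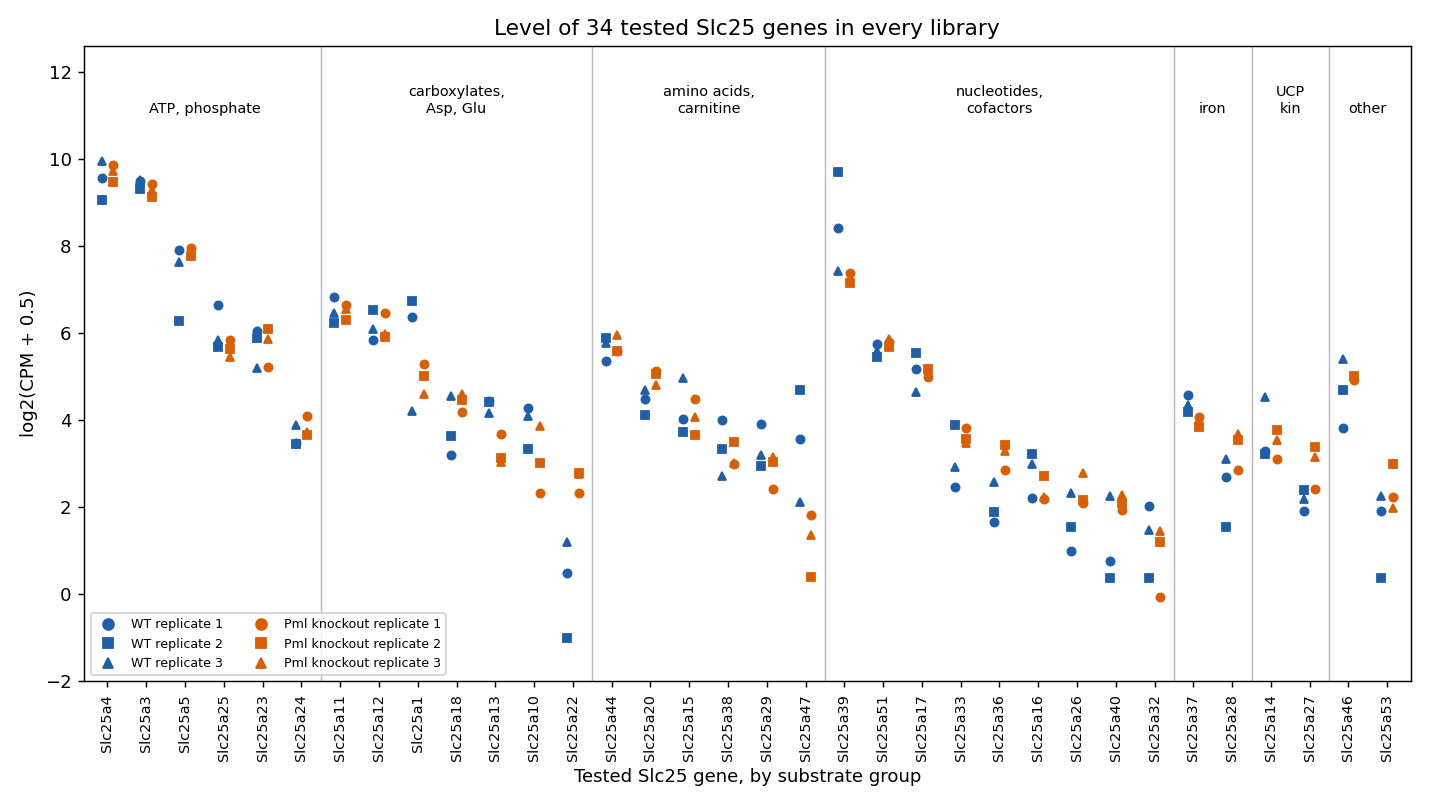
Level of 34 of the 35 tested Slc25 genes in each library, as log2(CPM + 0.5), ordered by substrate group and mean level; blue marks are the 3 WT libraries and orange marks the 3 Pml knockout libraries. Slc25a4 and Slc25a3 have the highest means, the WT marks of Slc25a39 and Slc25a47 are far apart, and Slc25a22 has all 3 WT marks under the knockout marks.

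The family's reads were concentrated in few genes. Slc25a4, Slc25a3 and Slc25a5 together took 60.2%, 43.2% and 69.0% of all Slc25 reads in WT replicates 1, 2 and 3, and 68.2%, 64.1% and 66.7% in knockout replicates 1, 2 and 3. The low value of WT replicate 2 goes with a high share for Slc25a39, which took 29.2% of that library's Slc25 reads (95% exact interval 27.7 to 30.7). In the other libraries Slc25a39 took 5.93% to 11.8%. Summed over the family, the level was 2840 ± 53.2 CPM in WT and 2538 ± 208 in the knockout (SD, n = 3 each). Every WT library stood above every knockout library in that sum. Slc25a39 alone averaged 450 CPM in WT and 153 in the knockout, so most of the gap between the mean sums lies in this gene. A lower level across the family is therefore not shown. For the sum, the exact two-sided permutation p was 0.1, the smallest that 3 against 3 can give. It was 0.233 after adjustment over the 7 summary quantities tested. The direction rests on the scaling. With plain library totals in place of scaling factors, an alternative chosen after seeing the data, the sum was 2185, 2024 and 3111 CPM in WT and 3061, 2818 and 3084 in the knockout. There the genotypes overlapped and the knockout mean was the higher one (2987 ± 148 against 2440 ± 587, SD, n = 3 each, exact permutation p 0.4). Those totals include Rn45s, which held 41.9% and 39.8% of counts in WT replicates 1 and 2, against 14.6% to 19.6% in the other libraries. Library totals without Rn45s were not tried.

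Carriers of adenine nucleotides and phosphate feed oxidative phosphorylation. Slc25a4, the ADP/ATP exchanger typical of heart and muscle, was the most abundant member, at 759, 529 and 987 CPM in WT replicates 1, 2 and 3 and 925, 706 and 849 CPM in knockout replicates 1, 2 and 3. Its genotypes overlapped, with a log2 fold change of 0.12 (SE 0.304, edgeR adjusted p 0.862). Slc25a3, which brings phosphate and copper into the matrix, stood at 727, 634 and 733 CPM in WT and 684, 561 and 629 in the knockout. These groups overlapped too, at a log2 fold change of -0.16 (SE 0.253, adjusted p 0.773). Slc25a4 was above Slc25a3 in every library except WT replicate 2. Slc25a5, the ADP/ATP exchanger of dividing cells, stood at 241, 77.5 and 197 CPM in WT and 250, 217 and 240 in the knockout. WT replicate 2 was low, and the log2 fold change of 0.45 (SE 0.372, adjusted p 0.569) was 0.12 without it. A pseudogene that carries the name of Slc25a5 is annotated, so its reads are uncertain.

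Slc25a4 gave more reads than Slc25a5 in all 6 libraries. Slc25a5 made up 24.1%, 12.8% and 16.6% of the reads of the pair in WT, and 21.3%, 23.5% and 22% in the knockout. The groups overlapped (exact permutation p 0.4, adjusted 0.4 over the 7 quantities). The calcium-regulated carriers of ATP-magnesium, Slc25a25, Slc25a23 and Slc25a24, were lower, at means of 59.5, 54.0 and 12.8 CPM over all libraries. None of these 3 had an unadjusted p under 0.05. Their relative Slc25a41 had 0 reads in every library, and the testis-type ADP/ATP exchanger Slc25a31 had 1 read in all. A count of 0 allows up to 0.448 CPM in knockout replicate 3, the largest library after scaling, and up to 2.40 CPM in WT replicate 2, the smallest, counting error only.

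Carriers of carboxylates, aspartate and glutamate link the citric acid cycle to the cytosol. Slc25a11, the oxoglutarate/malate carrier of the malate-aspartate shuttle, stood at 113, 75.1 and 88.3 CPM in WT and 99.0, 78.2 and 94.3 in the knockout. Slc25a12, its aspartate/glutamate partner in brain, stood at 57.2, 92.7 and 67.9 CPM in WT and 87.3, 59.7 and 63.0 in the knockout. Both pairs of groups overlapped, with log2 fold changes of -0.03 (SE 0.263) and -0.04 (SE 0.291).

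Slc25a13, or citrin, is the aspartate/glutamate carrier best known from liver, where its loss disturbs the urea cycle. It stood at 21.1, 20.8 and 17.5 CPM in WT and 12.3, 8.25 and 7.76 CPM in the knockout (chromosome 6, 6041218 to 6217173, minus strand, GRCm38). The knockout libraries were all below the WT libraries, WT replicate 3 included. Its log2 fold change was -1.06 (SE 0.355), with an unadjusted p of 0.0133 and an edgeR adjusted p of 0.238. Without both WT replicates 1 and 2 it was -0.89 (SE 0.388, unadjusted p 0.0321). With library totals it was -0.60 (unadjusted p 0.147), and the unadjusted p was 0.0584 without knockout replicate 2 and 0.0697 without knockout replicate 3. Citrin made up 27.0%, 18.3% and 20.5% of the reads of Slc25a12 and Slc25a13 together in WT, and 12.4%, 12.1% and 11% in the knockout. In this share, which uses the same Slc25a13 reads, the groups did not overlap (exact permutation p 0.1, the smallest possible, and 0.233 adjusted over the 7 quantities).

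Slc25a22 carries glutamate with a proton into the matrix and is known from inherited epilepsy. WT replicates 1, 2 and 3 held 3, 0 and 8 of its reads, and knockout replicates 1, 2 and 3 held 30, 39 and 42. That is 0.893, 0 and 1.82 CPM against 4.51, 6.43 and 6.27 CPM (chromosome 7, 141429744 to 141437892, minus strand, GRCm38). All knockout libraries were above all WT libraries. No WT library reached the level the filter asks for, so the gene was tested only because it was high in the knockout. It was the 1 tested member with no WT library at that level. Slc25a36, Slc25a28 and Slc25a53 had 2 WT libraries there, and Slc25a26 and Slc25a40 had 1, against all 3 knockout libraries. For Slc25a22 the log2 fold change was 2.34 (SE 0.707), with an unadjusted p of 0.00769 and an edgeR adjusted p of 0.220. With WT replicate 3 as the only WT library it was 1.64 (SE 0.663, unadjusted p 0.0218, adjusted 0.213). The adjusted p over the alternatives ran from 0.0396 without WT replicate 3 to 0.714. A mean minimum of 5 CPM left the gene out.

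The second glutamate carrier, Slc25a18, is typical of glia. Its level was 8.63, 12 and 22.9 CPM in WT, beside 17.8, 21.4 and 23.9 in knockout libraries, with overlap (log2 fold change 0.51, SE 0.405). Slc25a18 gave most of the reads of this pair in every library. Its share was 90.6%, 100% and 92.7% in WT (95% exact intervals 75.0 to 98.0, 78.2 to 100 and 86.1 to 96.8). The share was 79.7%, 76.9% and 79.2% in the knockout (72.3 to 85.9, 69.8 to 83.1 and 73.0 to 84.6). The intervals of WT replicates 1 and 2 overlap those of the knockout, and the exact permutation p was 0.1 (0.233 adjusted). Slc25a22 was tested only because it was high in the knockout, and this share uses the same reads. The share is therefore no separate test of that difference.

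Slc25a1 exports citrate for fatty acid and sterol synthesis. It stood at 82.2, 106 and 17.9 CPM in WT and 39.0, 31.7 and 23.7 CPM in the knockout. WT replicates 1 and 2 were above the knockout and WT replicate 3 below it. The log2 fold change was -1.11 (SE 0.534, adjusted p 0.342). It reversed to 0.80 (SE 0.339, unadjusted p 0.0270) without both WT replicates 1 and 2, and was -1.56 (adjusted p 0.0149) without WT replicate 3. The hepatocyte sum and the Rn45s share were also highest in WT replicates 1 and 2, and their part in this difference was not tested. Slc25a10, the dicarboxylate carrier, averaged 15.1 CPM in WT and 8.71 in the knockout with overlap (log2 fold change -0.82, SE 0.483). Slc25a21, a carrier of oxodicarboxylates, had 4 reads in all and was not tested.

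**Figure D2:**
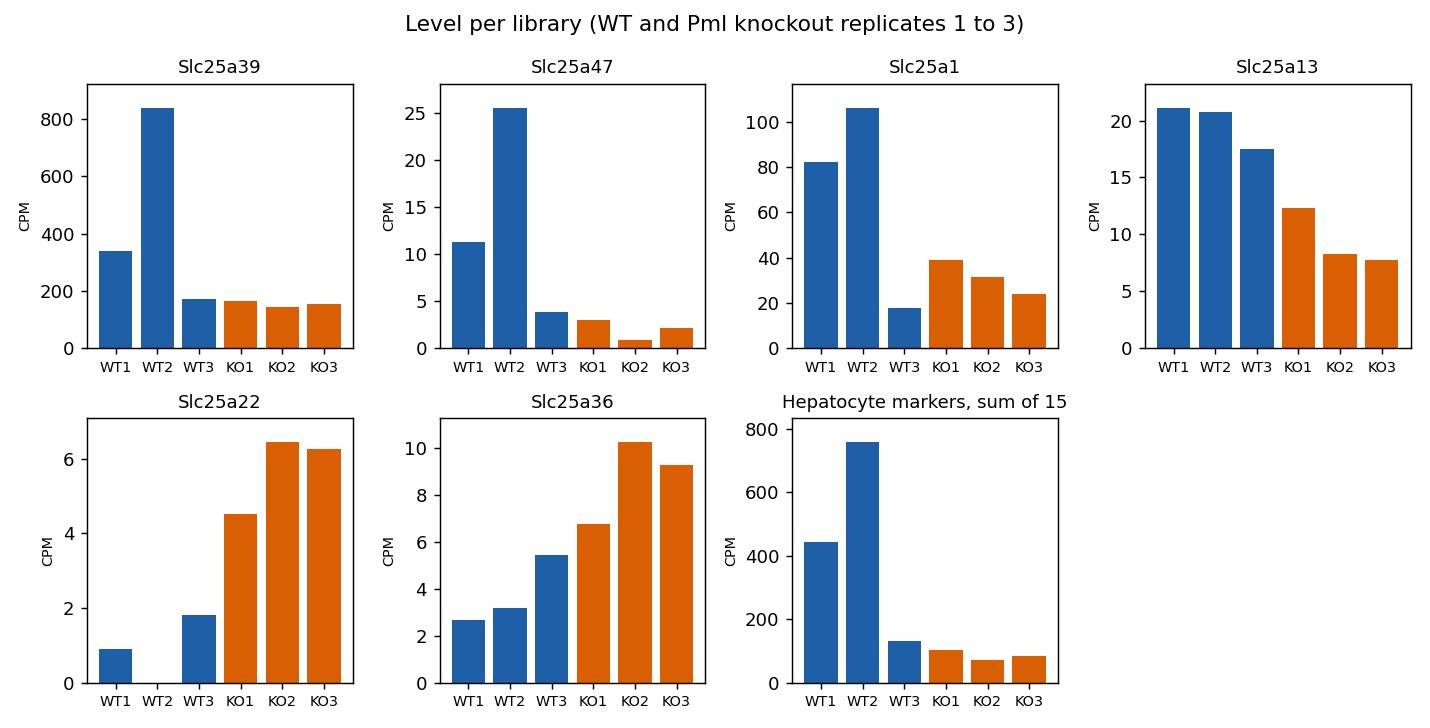
CPM in each library for 6 Slc25 genes and for the sum of 15 hepatocyte markers; blue bars are WT replicates 1 to 3 and orange bars Pml knockout replicates 1 to 3, each panel with its own axis from 0. Slc25a39, Slc25a47, Slc25a1 and the hepatocyte sum are highest in WT replicates 1 and 2. WT replicate 3 lies below the knockout bars for Slc25a1, and in every other panel the genotypes do not overlap. For Slc25a39, Slc25a47 and the hepatocyte sum, WT replicate 3 is nearer to the knockout than to the other WT libraries.

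Carriers of nucleotides and cofactors formed the most numerous group, with 10 of 11 members tested. Slc25a39 imports glutathione into the matrix. It stood at 339, 839 and 171 CPM in WT and 165, 142 and 153 CPM in the knockout (chromosome 11, 102402985 to 102407946, minus strand, GRCm38). The genotypes did not overlap, but WT replicate 3 was nearer to the knockout libraries than to the other WT libraries. The log2 fold change was -1.55 (SE 0.487), with an unadjusted p of 0.00979 and an edgeR adjusted p of 0.228. Without WT replicates 1 and 2 it was -0.16 (SE 0.244, unadjusted p 0.521), and without WT replicate 2 alone it was -0.72. Without WT replicate 3 it was -1.92 (adjusted p 0.0139).

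Slc25a39 is also known for its abundance in red cell precursors. Of 12 erythroid markers, 7 had 0 reads in every library, all 6 globin genes among them, and the whole list summed to 0 to 1.60 CPM per library. The hepatocyte sum and the Rn45s share were highest in WT replicates 1 and 2, the libraries where Slc25a39 was highest, and their part in its difference was not tested. Macrophage markers were also highest in WT replicate 2, with a sum of 33.6 CPM over 7 genes against 0 to 2.98 elsewhere. Its paralog Slc25a40, the other glutathione carrier, had 1.19, 0.799 and 4.31 CPM in WT and 3.31, 3.79 and 4.33 in the knockout. The groups overlapped (log2 fold change 0.69, SE 0.672). The fitted differences of these 2 glutathione carriers had opposite signs, and neither passed the threshold. Without WT replicates 1 and 2 the signs were the same, at -0.16 for Slc25a39 and -0.18 for Slc25a40. Slc25a40 had only 4 and 1 reads in those 2 libraries.

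Slc25a36 and Slc25a33 carry pyrimidine nucleotides for the mitochondrial genome. Slc25a36 stood at 2.68, 3.20 and 5.45 CPM in WT and 6.77, 10.2 and 9.25 in the knockout, with no overlap (chromosome 9, 97074961 to 97111157, minus strand, GRCm38). Its log2 fold change was 1.16 (SE 0.486, unadjusted p 0.0370, edgeR adjusted p 0.287), and 0.67 (SE 0.491) without WT replicates 1 and 2. Slc25a33 had a log2 fold change of 0.51 (SE 0.460) with overlap.

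The NAD carrier Slc25a51 varied little, at 47.9 ± 4.92 CPM in WT and 54.7 ± 3.65 in the knockout (SD, n = 3 each). The peroxisomal member Slc25a17 stood at 35.5 ± 10.9 and 34.0 ± 2.27 CPM. The S-adenosylmethionine carrier Slc25a26, the coenzyme A related Slc25a16 and the folate and flavin carrier Slc25a32 averaged under 6 CPM and overlapped between genotypes.

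Carriers of amino acids and carnitine included the member with the smallest p. Slc25a47 is a carrier restricted mainly to liver. WT replicates 1, 2 and 3 held 38, 32 and 17 of its reads, and knockout replicates 1, 2 and 3 held 20, 5 and 14, or 11.3, 25.6 and 3.86 CPM against 3.01, 0.825 and 2.09 (chromosome 12, 108836046 to 108856815, plus strand, GRCm38). The genotypes did not overlap, and WT replicate 3 again lay next to the knockout. The log2 fold change was -2.68 (SE 0.744), with an unadjusted p of 0.00476 and an edgeR adjusted p of 0.212. The value was -0.95 (SE 0.790, unadjusted p 0.241) without WT replicates 1 and 2. The summed hepatocyte markers ranked the WT libraries in the same order, while Alb and Trf were highest in WT replicate 1. Fga was also highest there, by little (24.1 CPM, against 24.0 in WT replicate 2). All 13 tested hepatocyte markers had a lower fitted level in the knockout, with a median log2 fold change of -2.40, and their part in the Slc25a47 difference was not tested.

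Slc25a44, the carrier of branched-chain amino acids, was the most abundant of this group at 40.5, 58.4 and 54.0 CPM in WT and 48.0, 47.5 and 62.1 in the knockout. The groups overlapped, with a log2 fold change of 0.05 (SE 0.278). Slc25a20 exchanges carnitine for acylcarnitine, the entry of fatty acids into oxidation. It stood at 22, 16.8 and 25.4 CPM in WT and 34.6, 33.2 and 27.5 in the knockout, with no overlap (log2 fold change 0.55, SE 0.301, adjusted p 0.394). The ornithine carrier Slc25a15, the glycine carrier Slc25a38 and the basic amino acid carrier Slc25a29 averaged 18.3, 9.51 and 8.55 CPM and overlapped. For Slc25a45, 0, 1 and 15 reads were counted in WT, against 12, 2 and 5 in knockout libraries. Slc25a2, an ornithine carrier, had 12 reads, all in knockout replicate 2. Slc25a48, a choline carrier, had 0 reads.

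Iron for heme and iron-sulfur clusters enters through the mitoferrins. Slc25a37, mitoferrin 1, is best known from red cell precursors. It stood at 23.5, 17.6 and 19.8 CPM in WT and 16.4, 13.9 and 15.5 in the knockout, with no overlap (log2 fold change -0.42, SE 0.313, adjusted p 0.523). Slc25a28, the more widely expressed mitoferrin 2, stood at 5.95, 2.40 and 8.17 CPM in WT and 6.77, 11.2 and 12.4 in the knockout, with overlap (log2 fold change 0.78, SE 0.497, adjusted p 0.460). Slc25a28 made up 20.2%, 12% and 29.3% of mitoferrin reads in WT, against 29.2%, 44.7% and 44.4% in knockout libraries. The ranges met at WT replicate 3 and knockout replicate 1 (exact permutation p 0.2, adjusted 0.280).

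Relatives of the uncoupling proteins were sparse. Slc25a14 stood at 9.23, 8.79 and 22.7 CPM in WT and 8.12, 13.2 and 11.2 in the knockout, and its fitted value of -0.37 (SE 0.456) became 0.27 without WT replicate 3, the library that stood high. Slc25a27, expressed mainly in brain, had 3.27, 4.80 and 4.09 CPM in WT and 4.81, 9.89 and 8.35 in the knockout. Its groups met without overlap, at a log2 fold change of 0.95 (SE 0.497, adjusted p 0.375). Slc25a30 had 0 reads, and Slc25a34 and Slc25a35 were under the filter with 13 and 24 reads in all. Slc25a46, the outer membrane member that takes part in mitochondrial fusion and fission, ranged from 13.7 to 42.0 CPM in WT and from 29.6 to 31.8 in knockout libraries (log2 fold change 0.19, SE 0.393). Slc25a53, whose cargo is not settled, had 2.80 ± 1.81 and 5.02 ± 2.11 CPM. Slc25a43 had 4 reads, all in WT replicate 3, and Slc25a54 had 0. Slc25a42, a coenzyme A carrier under the filter, gave 10, 0 and 0 reads in WT, against 6, 8 and 11 in knockout libraries.

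**Figure D3:**
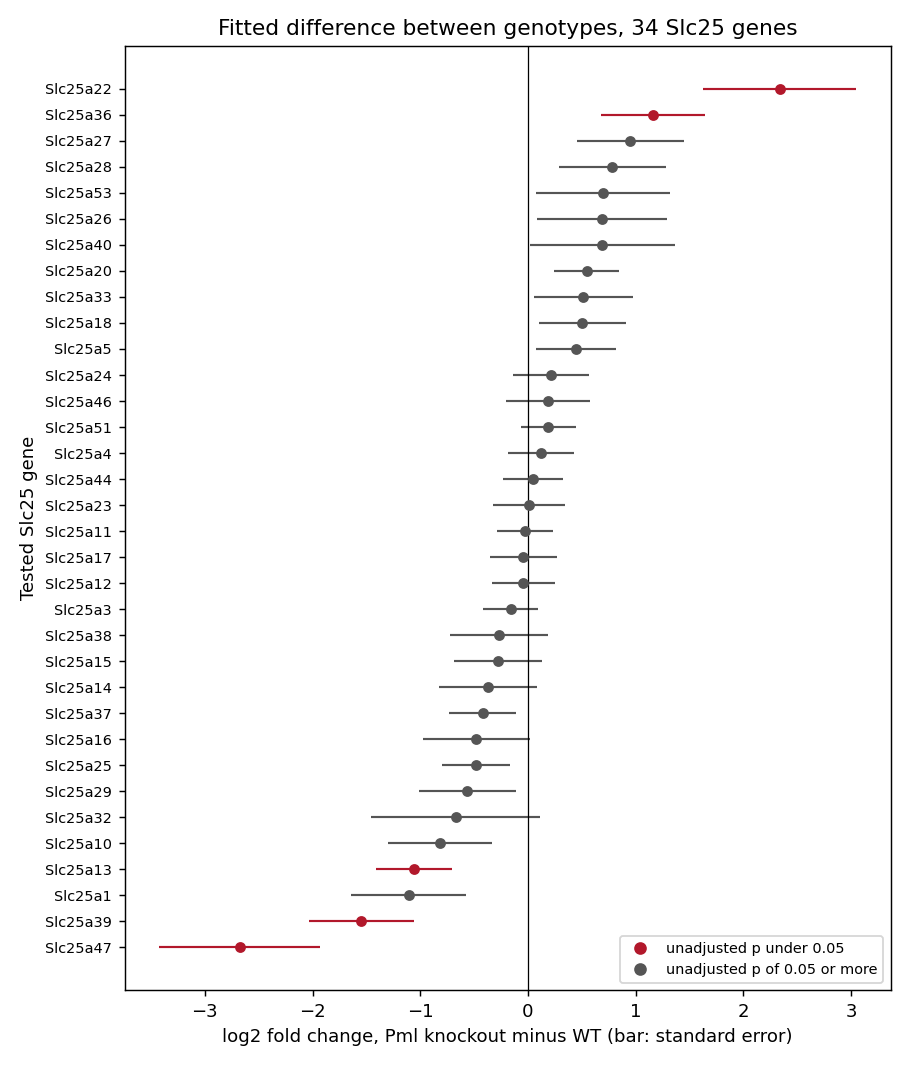
Fitted log2 fold change of Pml knockout minus WT for 34 of the 35 tested Slc25 genes, with the standard error as a bar; red marks have an unadjusted edgeR p under 0.05. Values run from -2.68 for Slc25a47 to 2.34 for Slc25a22, and 17 of the 34 lie above 0.

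The members were more spread among WT than among knockout libraries. The coefficient of variation was larger in WT than in the knockout for 30 of the 35 members (85.7%, against 83.2% of all tested genes). Its median was 39.0% in WT and 18.5% in the knockout. WT replicate 3 was the WT library nearest to the knockout mean for 17 members (48.6%, against 52.3% of all tested genes). With WT replicate 3 left out, 5 members passed the edgeR threshold (14.3%, against 13% of all tested genes), among them Slc25a22 higher and Slc25a39, Slc25a47 and Slc25a1 lower. In that fit 1526 of all genes passed. With WT replicates 1 and 2 left out instead, no member passed, while 142 of all genes did. Then 6 members had an unadjusted p under 0.05, Slc25a1, Slc25a22 and Slc25a42 higher and Slc25a13, Slc25a14 and Slc25a15 lower. These are 8.11% of the members in each direction, against 9.59% of all tested genes higher and 7.37% lower. The smallest adjusted p was 0.133, for Slc25a14. Slc25a42, not tested in the main fit, entered this fit only through its knockout reads, as WT replicate 3 held 0. In WT replicate 1, left out here, it stood at 2.98 CPM, above the 0.903 to 1.64 CPM of the knockout libraries. The place of Slc25a42 among the higher members is therefore no support for a difference. In this fit the lone WT library is assumed to vary like the knockout libraries.

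In the authors' deposited table, 37 members carried a p-value and 3 passed an adjusted p under 0.05 (8.11%, against 2.94% of all genes with a p-value there, 1.13% higher and 1.81% lower). Slc25a22 had a log2 fold change of 2.34 and an adjusted p of 0.0312 in the authors' deposited table. Slc25a39 had -1.505 and 0.0479, and Slc25a47 -2.66 and 0.0162, in the authors' deposited table. These values come from the same 6 libraries and are not a second measurement.

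All 47 members matched a gene of the GENCODE M21 annotation of GRCm38, and 4 pairs were next to each other among protein-coding genes. In 3 of these pairs one gene was read and its neighbour hardly at all. Slc25a23 had 1498 reads over the 6 libraries and Slc25a41, 2056 bases away on the same strand, had 0. Slc25a24 had 382 and Slc25a54, at a gap of 6461 bases, had 0. Slc25a5 had 6363 and Slc25a43, at a gap of 18448 bases on the X chromosome, had 4. In the last pair, Slc25a29 and Slc25a47 lie head to head, 162 bases apart on opposite strands, with 231 and 126 reads. Slc25a29 stood at 14.6, 7.19 and 8.63 CPM in WT and 4.81, 7.75 and 8.35 in the knockout. WT replicate 2 was thus the highest library for Slc25a47 and the lowest WT library for Slc25a29. Among tested members, 3 had another annotated gene over their last 1000 bases (Slc25a18, Slc25a23 and Slc25a26, on the opposite strand in each case), so their reads are uncertain without a stated strand setting.

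Upstream sequence was set beside the levels for the members with the smallest p in each direction and for Slc25a39, the most abundant of the 5 members at an unadjusted p under 0.05. RefSeq's promoter table for GRCm38.p6 matched 36 of the 47 members. The 250 bases before the start held a median of 13 CpG pairs in the members, beside 6 over all 32851 entries, which include non-coding genes. They were searched on both strands for 3 short motifs. The GC box, spelled GGGCGG, was present in 24 of 36 members and 32.7% of all entries. The CAAT box, spelled CCAAT, was present in 16 of 36 members and 33.9% of entries. A TATA box, spelled TATAAA, was present in 1 of 36 members (Slc25a18) and 12.4% of entries. No motif contains another. Shown here are the bases of that window that no annotated exon covers, with matches in capitals.
Slc25a39, chr11:102407545-102407767, minus strand: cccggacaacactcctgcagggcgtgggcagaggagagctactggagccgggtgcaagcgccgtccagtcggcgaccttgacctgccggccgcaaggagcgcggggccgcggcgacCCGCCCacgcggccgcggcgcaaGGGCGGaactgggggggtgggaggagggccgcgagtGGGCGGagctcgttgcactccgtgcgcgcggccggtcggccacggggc
Slc25a47, chr12:108850879-108851128, plus strand: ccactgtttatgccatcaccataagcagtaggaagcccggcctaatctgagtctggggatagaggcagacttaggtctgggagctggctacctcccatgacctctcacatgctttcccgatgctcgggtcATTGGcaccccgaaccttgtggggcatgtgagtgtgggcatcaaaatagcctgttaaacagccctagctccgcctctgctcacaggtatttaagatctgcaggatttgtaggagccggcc
Slc25a22, chr7:141437893-141438112, minus strand: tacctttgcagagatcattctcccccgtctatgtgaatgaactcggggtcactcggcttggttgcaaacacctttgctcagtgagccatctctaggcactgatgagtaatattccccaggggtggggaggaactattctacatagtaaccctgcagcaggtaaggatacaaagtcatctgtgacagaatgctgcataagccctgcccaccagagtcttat

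The Slc25a39 stretch of 223 bases held 32 CpG pairs and 3 GC boxes. The Slc25a47 stretch of 250 bases held 6 CpG pairs and 1 CCAAT on the opposite strand, and the Slc25a22 stretch of 220 bases held 3 CpG pairs and none of the 3 motifs. Bases that an annotated exon covers were left out of these counts. With them, the 250-base window of Slc25a22 held a GC box and 4 CpG pairs. The full window of Slc25a39 held 35 CpG pairs and further GC boxes. The RefSeq start of Slc25a39 lies 429 bases inside its GENCODE gene, so the printed stretch lies within that gene although no annotated exon covers it. The RefSeq start of Slc25a47 lies 15083 bases inside the GENCODE gene, so this stretch is not the interval it shares with Slc25a29. Which start was used in these cells was not measured by 3′ tags.

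Genes that work with the carriers were read from 4 lists. Of 3 tested carriers with other names, 2 were lower at an unadjusted p under 0.05, where 9.19% of all genes were, and 0 passed by edgeR. Mtch1, an outer membrane relative, stood at 477 CPM on average in WT and 189 in knockout libraries (log2 fold change -1.33, SE 0.444, adjusted p 0.238). Mtch2, an insertase of the outer membrane, stood at 345 and 226 CPM (-0.61, SE 0.264, adjusted p 0.300). Ucp2 averaged 2.89 and 2.51 CPM, and Ucp1 and Ucp3 had 0 reads. Mtch1 was highest in WT replicate 2, at 846 CPM, as the hepatocyte sum was, and passed without WT replicate 3 (-1.67, adjusted p 0.0165). Without WT replicates 1 and 2, 0 of the 3 had an unadjusted p under 0.05.

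Carriers reach the inner membrane through small chaperones of the intermembrane space and the TIM22 complex. The genes of this route, like the other lists, were chosen with earlier results of these data known. Of 7 tested genes of that route, 4 were lower at an unadjusted p under 0.05 (57.1%, against 9.19% of all tested genes). The same 4 had no overlap between genotypes, where 11.3% of all tested genes did not overlap in that direction, and 0 passed by edgeR, DESeq2 or limma voom. Timm22, the pore itself, averaged 60.3 CPM in WT and 33.0 in knockout libraries (log2 fold change -0.85, SE 0.319, adjusted p 0.249). The chaperones Timm13, Timm10b and Timm10 had log2 fold changes of -0.96, -0.78 and -0.79. Timm9, Timm8b and the receptor Tomm70a had fitted values of 0.25, 0.24 and 0.35 with overlap. Without WT replicates 1 and 2, 5 of 8 tested genes were lower at an unadjusted p under 0.05, against 7.37% of all genes in that fit. Timm10b passed once WT replicate 3 was left out (-0.89, adjusted p 0.0413). With library totals 0 of 7 were lower at an unadjusted p under 0.05, against 1.86% of all genes.

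Of 24 tested partner enzymes, 1 was higher and 4 lower at an unadjusted p under 0.05, where 6.70% of all genes were higher and 9.19% lower, and 0 passed by edgeR. Glud1, which turns glutamate into oxoglutarate, averaged 447 CPM in WT and 846 in knockout libraries (log2 fold change 0.92, SE 0.317, adjusted p 0.239). Mdh2 and Got2, the matrix enzymes of the malate-aspartate shuttle, had -1.15 (SE 0.393) and -1.20 (SE 0.394). Both were highest in WT replicate 2, and both passed without WT replicate 3 (adjusted p 0.0252 for Mdh2 and 0.0140 for Got2). The cytosolic partners Mdh1 and Got1 had -0.27 (SE 0.272) and -0.05 (SE 0.278). Gpd1 of the glycerol phosphate shuttle had -1.44 (SE 0.503), and Gclm of glutathione synthesis -0.92 (SE 0.390). Gpd1 and Gclm were also highest in WT replicate 2, at 19.2 and 125 CPM. Among 18 tested inner membrane transporters and porins outside the family, 2 were lower at an unadjusted p under 0.05, a share of 11.1% beside 9.19% of all genes. These were the serine carrier Sfxn1 (-0.68, SE 0.298) and the ion exchanger Letm1 (-0.57, SE 0.243), and 0 passed by edgeR. The pyruvate carrier subunit Mpc1 passed without WT replicate 3 (-1.71, adjusted p 0.0473). Among the enzymes, the mitochondrial NAD kinase Nadk2 passed without WT replicates 1 and 2 (1.51, adjusted p 0.0414).

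**Figure D4:**
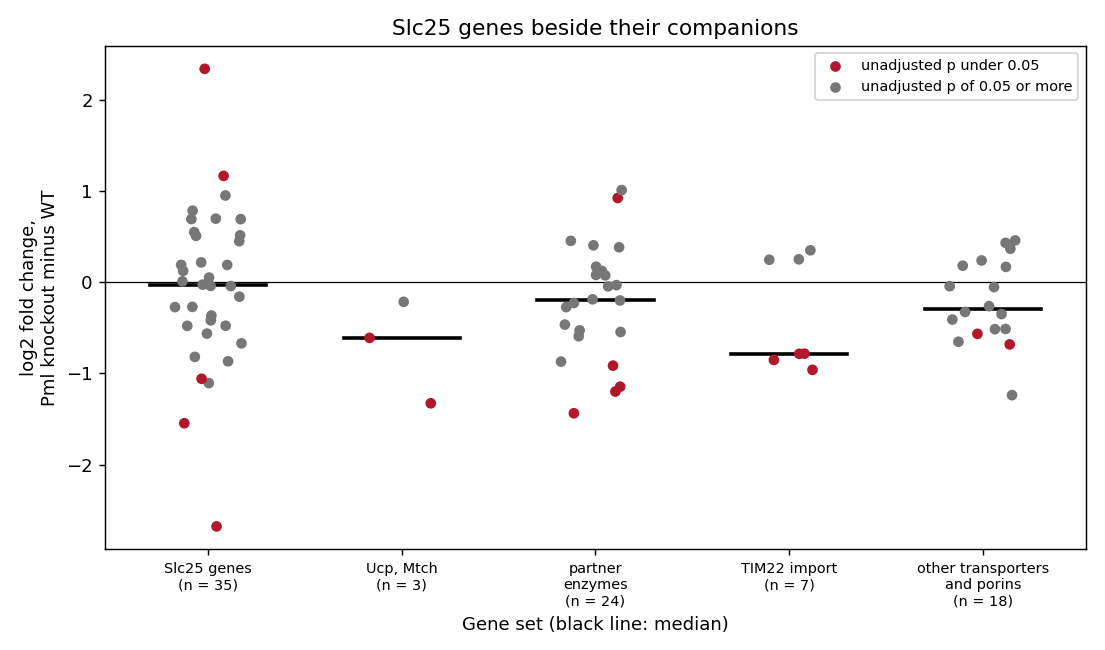
Fitted log2 fold change of Pml knockout minus WT for the tested Slc25 genes and 4 companion lists; each mark is 1 gene, red marks have an unadjusted edgeR p under 0.05 and black lines are medians. The Slc25 median is -0.03, and the medians of the companions are -0.61 for Ucp and Mtch, -0.20 for partner enzymes, -0.78 for TIM22 import and -0.30 for other transporters and porins.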

How the data were processed

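FastQC, HISAT2, HTSeq, edgeR and the mm10 build are named in the submitters' processing notes, without their order. Tool versions, the annotation and the strand setting were not stated there. RNA with an integrity number above 7 was amplified by 20 to 24 PCR cycles, per the labels' protocols. The deposited table holds raw whole-number counts per gene symbol. It also holds rounded normalized values (a score, deposited by the authors and not used) and the authors' own log2 fold change, p-value and adjusted p-value, per the file headers.

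The fits ran under R 4.3.3 (edgeR 4.0.16, limma 3.58.1, DESeq2 1.42.0). Genes were kept at edgeR's default filter (count minimum 10, total 15), libraries were scaled by the trimmed mean of M values, and the robust quasi-likelihood F test compared knockout with WT without covariates. In the main fit, p-values were adjusted by Benjamini-Hochberg over the 11317 tested genes. Each alternative fit was adjusted over its own tested genes, and the permutation p-values over the 7 summary quantities. SE is the size of the log2 fold change over the square root of F. Share intervals are exact Clopper-Pearson at 95%, and cover counting error only. The fit was first tested on simulated data. Members, lists and role groups were chosen with earlier results of these data known. Values in every library were given for members at an unadjusted p under 0.05, the 5 smallest p in each direction, the 6 most abundant and the most abundant of each role group, and for further members a sentence turned on, chosen after their values were seen. For 1 tested member, values are not reported here, though it stays in all counts. Alternatives were other scalings, filters and tools, the replicate number as a block, left-out libraries and left-out marker rows. Of the lists of other cell types, neuron markers summed to 461 to 656 CPM, endothelial markers to 1.60 to 4.46, mesenchymal markers to 0.908 to 8.93, and brown fat and muscle markers to 2.80 to 11.8.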

Additional observations from a re-analysis of the deposited data

How the results depend on the processing

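Across 287 refits of the 18 members with full values, 260 kept their direction and their side of the threshold, 5 passed it in addition, 0 lost it and 22 changed sign. All genes past the threshold numbered 0 with library totals, limma voom, DESeq2's size factors, a mean minimum of 5 CPM or Rn45s left out. They numbered 3 without a count filter, 328 with DESeq2, 0 to 1526 with 1 library left out and 142 without WT replicates 1 and 2. Members past it numbered 1 with DESeq2 and 0 to 5 with 1 library left out, the 5 without WT replicate 3. Members at an unadjusted p under 0.05 ran from 3 (without knockout replicate 2) to 10 (without WT replicate 3), with 8 without WT replicate 2, where 6.54%, 31.9% and 17% of all genes had one. Members without overlap numbered 9 to 18 with 1 library left out (13 for WT replicate 2, 18 for WT replicate 3) and 25 with WT replicates 1 and 2 left out, where fewer libraries are compared. All genes without overlap were 27.4% to 51.0% and 66.1% there. The members' median moved to 0.47 with library totals, and ran between -0.051 and 0.12 with 1 library left out. The summed level, knockout minus WT, was 547 CPM with library totals and -396 to -190 CPM with 1 library left out, alternatives chosen after seeing the data. The cause of these changes was not tested.

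The replicate number as a block passed 2 of all genes and 0 members, with 4 members at an unadjusted p under 0.05. Deviations of same-numbered libraries correlated at -0.00254, 0.0667 and 0.188. With 3 libraries per genotype, these values cannot show whether same-numbered libraries share a culture or a preparation, and the labels do not say. The overlap count was not rerun for the tools, filters, block or left-out genes.

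Sign changes of the 18 members with full values, as log2 fold changes, were as follows. Library totals gave Slc25a3 0.28, Slc25a11 0.42, Slc25a12 0.41 and Slc25a37 0.027. No count filter gave Slc25a11 0.012 and Slc25a12 0.0021. Leaving out WT replicates 1 and 2 gave Slc25a1 0.80, Slc25a4 -0.26, Slc25a11 0.031, Slc25a12 0.040, Slc25a44 -0.045 and Slc25a46 -0.44. Leaving out 1 library gave ranges of -0.071 to 0.37 for Slc25a4, -0.14 to 0.15 for Slc25a11, -0.22 to 0.17 for Slc25a12, -0.083 to 0.16 for Slc25a44, -0.14 to 0.74 for Slc25a46 and -0.60 to 0.27 for Slc25a14. WT replicate 2, with 1775152 counts, limits members under about 2.40 CPM, the level of 3 counts there.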
